A study of Mus musculus with 6 samples.

Results

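The genes described here are 10 transcription factors of the oligodendrocyte lineage: *Olig1*, *Olig2*, *Sox10*, *Sox8*, *Nkx2-2*, *Nkx6-2*, *Myrf*, *Tcf7l2*, *Zfp488* and *Zeb2*. They were taken by symbol from the 55492 genes of the expression tables. No measured value enters that rule, but the list was chosen with earlier results of these data known. All 10 passed the expression filter, a mean TPM of at least 0.5 over the samples, as did 15245 genes in all. TPM is transcript abundance corrected for transcript length and for the total of each sample. RNA was measured in whole-brain cells of mice at postnatal day 16, pulled out with magnetic beads against O4, a lipid antigen of late oligodendrocyte progenitor cells (OPCs) and immature oligodendrocytes. There were 3 WT mice and 3 *Npc1-/-* mice, with no treatment named, and 1 library of poly(A) RNA per mouse. The *Npc1-/-* mice carried the *Npc1* nih null allele in every cell of the body and, by the study's methods, were first-generation hybrids of BALB/cJ and C57BL6/J parents with littermates for comparison. The beads do not remove every other brain cell, so the RNA is a mixture led by the oligodendrocyte lineage.

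Oligodendrocytes arise from progenitors under a cascade of transcription factors. The basic helix-loop-helix proteins *Olig1* and *Olig2* and the SoxE proteins *Sox8* and *Sox10* mark the lineage from progenitor to myelinating cell. The homeodomain proteins *Nkx2-2* and *Nkx6-2* act early and late in differentiation, *Zfp488* is a zinc finger partner of *Olig2*, and *Tcf7l2* and *Zeb2* act at the step where progenitors leave the cell cycle and mature. *Myrf*, a membrane-bound factor released by self-cleavage, then switches on myelin genes together with *Sox10*. The comparison of *Npc1-/-* with WT cells asks whether this machinery differs in level when the lysosomal cholesterol transporter *Npc1* is missing.

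*Npc1* itself checked the labels. Its scaled TPM was 41.1, 45.5 and 43.9 for WT replicates 1, 2 and 3 and 3.72, 5.17 and 4.35 for the *Npc1-/-* replicates. The depth read from the steps between low values was 40250000 to 50250000 fragments per library, so that even *Tcf7l2*, the lowest of the 10 factors, rested on roughly 830 to 2010 fragments per library if all came from its longest transcript. At such numbers counting error is small beside the spread between mice. Between 18.8% and 26.1% of TPM came from *Mbp* alone, and each library was divided by a size factor (median of ratios, 0.727 to 1.3) to give scaled TPM. The library of *Npc1-/-* replicate 3 was the only one with *Xist* above 0.01 TPM (15.6 TPM) and with *Ddx3y* at 0. In the others *Ddx3y* was 14.4 to 23.6 TPM, so by these sex-linked transcripts only *Npc1-/-* replicate 3 was female. The sample labels name no sex, and sex was not balanced between the genotypes. Values without *Npc1-/-* replicate 3 are given beside some of the results.

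None of the 10 factors differed between the genotypes past the thresholds of limma (a Benjamini-Hochberg p below 0.05 over all genes tested, with a log2 fold change of 0.1 or more in size), against 0.813% of all genes tested. At an unadjusted p below 0.05 there were 2 of 10, *Nkx6-2* and *Tcf7l2*, against 22.2% of all genes. In the same 2 genes all *Npc1-/-* mice lay on one side of all WT mice, against 27.5% of all genes, so the share among the factors was no larger than the background. The median log2 fold change of the factors, *Npc1-/-* relative to WT, was 0.03, beside 0.01 over all genes tested, and 5 of the 10 lay within 0.1 of 0, as did 30.3% of all genes. The adjusted p of the factors by limma ran from 0.142 to 0.937.

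**Figure D1:**
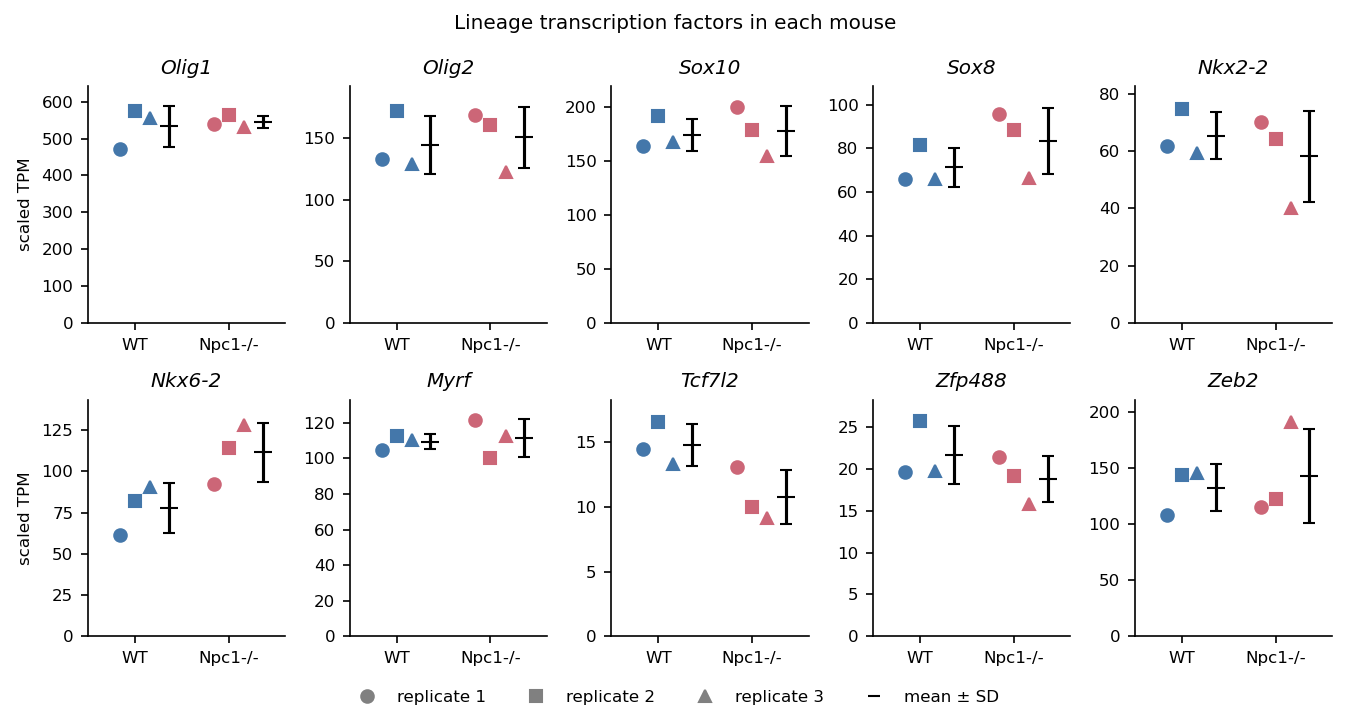
Scaled TPM (vertical axes, from 0) of the 10 lineage transcription factors in each mouse, WT in blue and *Npc1-/-* in red, with a symbol per replicate number and the mean ± SD of each genotype in black. The genotypes separate for *Nkx6-2*, where *Npc1-/-* mice lie above, and for *Tcf7l2*, where they lie below, and overlap for the other 8 genes.

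*Nkx6-2*, a homeodomain repressor known for its high level in myelinating oligodendrocytes, gave the largest positive difference. In GENCODE M21 (GRCm38) it spans 139579376 to 139582797 of chromosome 7 on the minus strand, and its 3′ end shares 277 bases with the end of *Inpp5a* on the other strand. Its scaled TPM in replicates 1, 2 and 3 was 61.3, 82.2 and 90.7 for WT and 92.6, 114 and 128 for *Npc1-/-*. Every *Npc1-/-* mouse lay above every WT mouse, but the gap between the highest WT and the lowest *Npc1-/-* mouse was small beside the spread within each genotype. The means were 78.1 ± 15.1 (SD, n = 3) and 112 ± 17.9 (SD, n = 3). This gave a log2 fold change of 0.52 (95% interval 0.10 to 0.94, standard error 0.18), with an adjusted p of 0.147 by limma. With WT replicate 1, *Npc1-/-* replicate 2 or *Npc1-/-* replicate 3 left out, the interval included 0. Without *Npc1-/-* replicate 3 the log2 fold change was 0.41 (95% interval −0.04 to 0.86). On TPM as deposited, where the median of all genes moved to −0.33, it was 0.15, which is 0.47 relative to that median. *Inpp5a*, with 22.8 to 33.6 scaled TPM, was highest in the same mouse as *Nkx6-2*, and the strand of the reads is not given in the sources used here, so reads shared by both genes cannot be told apart.

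*Tcf7l2*, an effector of Wnt signalling that peaks in newly formed oligodendrocytes, gave the largest negative difference. It spans 55741820 to 55933654 of chromosome 19 on the plus strand and has 22 annotated transcripts, which the gene-level values add up. The WT replicates 1, 2 and 3 had 14.5, 16.5 and 13.3 scaled TPM, and the *Npc1-/-* replicates 13.1, 9.99 and 9.15. All *Npc1-/-* mice lay below all WT mice, with *Npc1-/-* replicate 1 next to the lowest WT mouse. The means were 14.8 ± 1.65 (SD, n = 3) and 10.7 ± 2.08 (SD, n = 3). On the log2 scale the difference was −0.45 (95% interval −0.81 to −0.09, standard error 0.15), with an adjusted p of 0.142 by limma. With WT replicate 2, *Npc1-/-* replicate 2 or *Npc1-/-* replicate 3 left out, the interval included 0. Without *Npc1-/-* replicate 3 the difference was −0.35 (95% interval −0.72 to 0.01). It was −0.81 on TPM as deposited, or −0.48 once the median over all genes there is taken away. For both genes the two-sided exact permutation p was 0.1, the smallest that 3 mice against 3 allow.

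The sequences at the starts of these 2 genes are shown because they are the members whose genotypes did not overlap. They come from RefSeq (GRCm38.p6) and run from 250 bases before to 50 bases after a listed start, 5′ to 3′ on the gene's strand. Of the 10 factors 7 had an entry, with 11 starts in all. Capitals mark matches, on either strand, to CANNTG (the E-box bound by basic helix-loop-helix proteins such as *Olig1* and *Olig2*), ACAAAG (a SOX core) or TCAAAG (a TCF core).
*Nkx6-2*, chr7:139582748-139583047, minus strand: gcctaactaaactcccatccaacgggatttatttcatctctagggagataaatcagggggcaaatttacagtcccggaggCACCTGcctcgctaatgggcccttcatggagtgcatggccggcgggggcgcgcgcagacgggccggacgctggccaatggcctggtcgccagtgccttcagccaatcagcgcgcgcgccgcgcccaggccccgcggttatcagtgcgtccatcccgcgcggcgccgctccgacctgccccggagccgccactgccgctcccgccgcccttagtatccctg
*Tcf7l2* first start, chr19:55741560-55741859, plus strand: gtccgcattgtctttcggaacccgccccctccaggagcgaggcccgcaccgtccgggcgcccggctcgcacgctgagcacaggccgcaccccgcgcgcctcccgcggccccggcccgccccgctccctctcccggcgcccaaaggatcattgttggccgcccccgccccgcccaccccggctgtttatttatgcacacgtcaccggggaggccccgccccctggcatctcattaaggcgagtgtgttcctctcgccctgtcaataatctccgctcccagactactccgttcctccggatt
*Tcf7l2* second start, chr19:55895071-55895370, plus strand: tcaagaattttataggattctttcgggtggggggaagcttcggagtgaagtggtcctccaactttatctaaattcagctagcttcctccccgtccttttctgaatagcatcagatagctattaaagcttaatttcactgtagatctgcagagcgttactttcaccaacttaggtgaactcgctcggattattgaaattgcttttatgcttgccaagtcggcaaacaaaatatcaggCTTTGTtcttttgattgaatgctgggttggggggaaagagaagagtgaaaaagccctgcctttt
The *Nkx6-2* window held 1 E-box match and neither of the other motifs. The first *Tcf7l2* window held none of the 3 motifs, and the second held 1 SOX core match and no others. No match overlapped another. Among 32851 RefSeq windows of the same length, 72.3% held CANNTG, 18.7% held ACAAAG and 16% held TCAAAG. The *Nkx6-2* window and the first *Tcf7l2* window were rich in CpG, with 32 and 34 CpG dinucleotides and a GC content of 66.7% and 70%, against medians of 7 and 52.7% over all windows. The second *Tcf7l2* window, an internal start, had 7 CpG and a GC content of 42%. These matches describe the letters of the windows, and no binding was measured in these data. The windows of *Nkx2-2*, *Sox8* and *Zfp488* held 3, 1 and 1 E-box matches, that of *Olig2* held none of the 3 motifs, and of the 4 *Zeb2* windows 1 held a SOX core match.

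The Olig pair showed no detectable difference with size factors. *Olig1* has a single exon and spans 91269772 to 91271933 of chromosome 16 on the plus strand, and *Olig2* lies 41094 bases before it on the same strand, from 91225457 to 91228677. *Olig1* had the highest level of the 10 factors in every mouse and took between 37.5% and 40.9% of their summed scaled TPM. The WT replicates 1, 2 and 3 had 470.3, 575 and 555, and the *Npc1-/-* replicates 539, 564 and 533. The 3 *Npc1-/-* values all fell within the WT range. The log2 fold change was 0.04 (95% interval −0.24 to 0.31, adjusted p = 0.895 by limma), an interval that reaches from 0.848-fold to 1.24-fold of WT. Under quantile normalization it was −0.30 with an interval that left out 0 (−0.59 to −0.015, adjusted p = 0.212 by limma). *Olig2*, the factor that specifies the lineage, had 133, 172 and 129 in WT and 169, 161 and 122 in *Npc1-/-* mice, with a log2 fold change of 0.06 (95% interval −0.33 to 0.44). Its lowest value was in *Npc1-/-* replicate 3 and its highest in WT replicate 2. *Npc1-/-* replicates 1 and 2 lay inside the WT range, so the genotypes overlapped.

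The SoxE genes overlapped between genotypes as well. *Sox10*, the activator that is required for terminal differentiation and shares myelin gene enhancers with *Myrf*, spans 79154908 to 79165240 of chromosome 15 on the minus strand. It had 163, 191 and 168 scaled TPM in WT and 200.3, 178 and 154 in *Npc1-/-* mice. Both its highest and its lowest value came from *Npc1-/-* mice, and the log2 fold change was 0.02 (95% interval −0.27 to 0.31). *Sox8* (chromosome 17, minus strand, 25565892 to 25570686), the close relative of *Sox10* with overlapping functions, had 66.1, 81.7 and 66.2 in WT and 95.6, 88.3 and 66.2 in *Npc1-/-* mice. *Npc1-/-* replicates 1 and 2 lay above all WT mice and replicate 3 at the level of the lowest WT mice. For *Sox8* the log2 difference was 0.21 (95% interval −0.16 to 0.59, adjusted p = 0.486 by limma), and without *Npc1-/-* replicate 3 it was 0.37 (adjusted p = 0.160). The antisense gene *2810468N07Rik* shares 329 bases with *Sox8* and had 98.0 to 141 scaled TPM, above *Sox8* in every mouse, so its reads may be split between the genes if strand was not used.

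Of the remaining differentiation factors, *Nkx2-2* and *Zfp488* had negative values whose intervals include 0, and *Myrf* a value near 0. *Nkx2-2* (chromosome 2, minus strand, 147177546 to 147194243), which times the start of differentiation, had 61.8, 74.8 and 59.3 in WT and 70.1, 64.0 and 40.0 in *Npc1-/-* mice. Only *Npc1-/-* replicate 3 lay below the WT range. The log2 fold change of −0.20 (95% interval −0.70 to 0.30) rested on that mouse and was 0.04 without it. *Zfp488* (chromosome 14, minus strand, 33967070 to 33978764) had 19.6, 25.6 and 19.7 in WT and 21.3, 19.1 and 15.8 in *Npc1-/-* mice, a log2 difference of −0.20 (95% interval −0.56 to 0.15, adjusted p = 0.491 by limma). *Npc1-/-* replicate 3 lay below the WT range, replicate 2 just below it and replicate 1 inside it.
*Myrf* (chromosome 19, minus strand, 10208272 to 10240748) was the most even of the 10. It had 105, 113 and 111 scaled TPM in WT and 121, 100.01 and 113 in *Npc1-/-* mice, so the extremes in both directions were *Npc1-/-* mice. Its log2 difference was 0.02 (standard error 0.10), with a 95% interval of −0.21 to 0.25 that is the narrowest among the factors.

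*Zeb2* (chromosome 2, minus strand, 44983632 to 45117395), a zinc finger repressor that relieves the BMP and Notch brakes on differentiation, had 108, 144 and 145 scaled TPM in WT and 115, 123 and 191 in *Npc1-/-* mice. *Npc1-/-* replicate 3 lay far above the other 5 mice, whose genotypes overlapped. Its log2 difference was 0.09 (95% interval −0.42 to 0.59), and −0.15 without that mouse. *Zeb2* is also expressed by microglia, whose markers summed to 83.1, 115 and 153 scaled TPM in the same *Npc1-/-* mice and to 180 to 281 in WT. Their part in the values of *Zeb2* was not tested. In bulk samples, fewer cells of a type and less RNA per cell cannot be told apart.

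**Figure D2:**
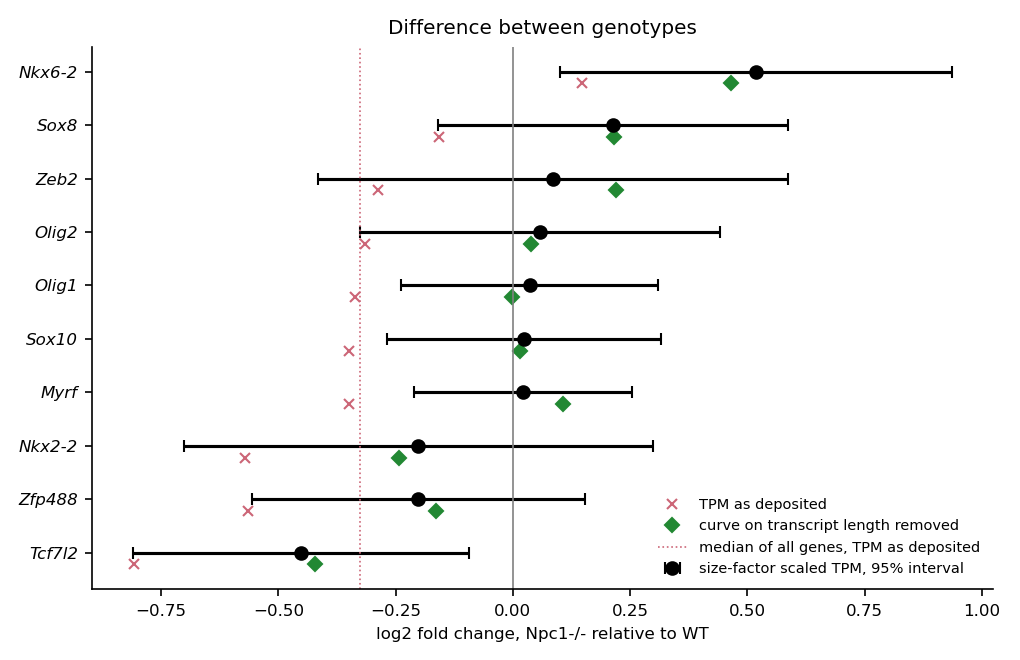
Log2 fold change (horizontal axis, *Npc1-/-* relative to WT) of each factor, with black points and 95% intervals from limma on scaled TPM, crosses for TPM as deposited and diamonds after a curve on transcript length was removed. With all 6 mice the intervals of *Nkx6-2* (0.10 to 0.94) and *Tcf7l2* (−0.81 to −0.09) leave out 0. The crosses, without size factors, lie left of the black points for all 10 genes, with the median of all genes at the dotted line (−0.33).

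Scaling moved all factors by a shift common to all genes. With size factors 7 of the 10 had a positive and 3 a negative log2 fold change, whereas on TPM as deposited only *Nkx6-2* was positive, at 0.15. Relative to the median of all genes, the 6 that changed sign lay between −0.02 and 0.17 there and between 0.01 and 0.21 with size factors. Transcript length also moved with the fold change over all genes (Spearman correlation −0.265 across genes, which are not independent replicates). The longest transcript has 1907 bases for *Nkx6-2*, 3715 for *Tcf7l2* and 9124 for *Zeb2*, beside a median of 3189 over the genes tested. Once a curve on length was removed from each library, a step chosen after seeing the data, *Nkx6-2* had a log2 fold change of 0.46, *Tcf7l2* of −0.42 and *Zeb2* of 0.22.

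TPM is a level per length, so the factors can be ordered within each genotype. In WT the order of mean scaled TPM was *Olig1* (533), *Sox10* (174), *Olig2* (145), *Zeb2* (132), *Myrf* (109), *Nkx6-2* (78.1), *Sox8* (71.3), *Nkx2-2* (65.3), *Zfp488* (21.6) and *Tcf7l2* (14.8). Neighbours separated beyond the range of the 3 mice at 4 places: *Olig1* above *Sox10*, *Myrf* above *Nkx6-2*, *Nkx2-2* above *Zfp488* and *Zfp488* above *Tcf7l2*. The ranges of *Sox10*, *Olig2*, *Zeb2* and *Myrf* overlapped from each to the next, as did those of *Nkx6-2*, *Sox8* and *Nkx2-2*. In *Npc1-/-* mice the order was the same except that *Nkx6-2* (112 ± 17.9, SD, n = 3) stood beside *Myrf* (111 ± 10.8, SD, n = 3), with overlapping ranges.

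Ratios of factors within a mouse do not depend on how libraries are scaled, and 5 were compared with two-sided exact permutation tests. The ratio of *Sox8* to *Sox10* was 0.404, 0.428 and 0.394 in WT and 0.477, 0.495 and 0.430 in *Npc1-/-* mice. All *Npc1-/-* mice lay above all WT mice, if narrowly for replicate 3, and the geometric mean of *Npc1-/-* was 1.14-fold that of WT, with an exact permutation p of 0.1, or 0.333 adjusted over the 5 ratios. The ratio of *Nkx6-2* to *Nkx2-2*, a late to an early homeodomain factor, was 0.993, 1.1 and 1.53 in WT and 1.32, 1.78 and 3.20 in *Npc1-/-* mice (1.65-fold, exact permutation p = 0.2, adjusted 0.333). The genotypes overlapped at WT replicate 3 and *Npc1-/-* replicate 1. The ratio of *Zeb2* to *Tcf7l2* was 7.46, 8.68 and 10.9 in WT and 8.78, 12.3 and 20.9 in *Npc1-/-* mice (1.47-fold, exact permutation p = 0.2), and its highest value came from *Npc1-/-* replicate 3.
*Olig1* to *Olig2* was 3.35 to 4.31 in WT and 3.19 to 4.35 in *Npc1-/-* mice, and *Myrf* to *Olig2* was 0.657 to 0.859 and 0.622 to 0.920. Both ranges of WT lay inside those of *Npc1-/-* mice (exact permutation p = 0.9 each). No ratio could reach a p below 0.1 with 3 mice against 3.

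**Figure D3:**
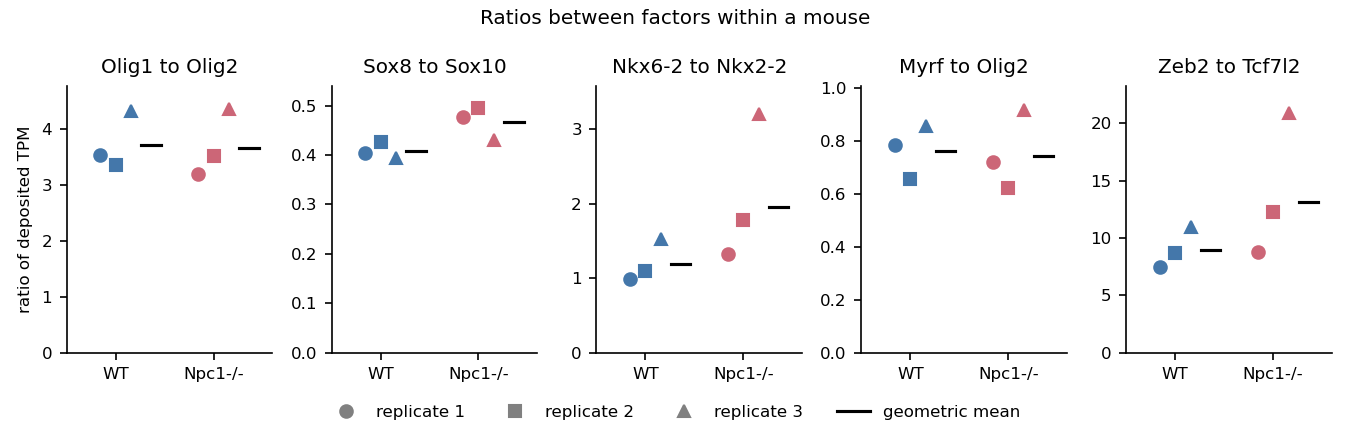
Ratio of the deposited TPM of 2 factors within each mouse (vertical axes, from 0), WT in blue and *Npc1-/-* in red, with a symbol per replicate number and the geometric mean as a bar. *Sox8* to *Sox10* separates the genotypes, *Nkx6-2* to *Nkx2-2* and *Zeb2* to *Tcf7l2* are highest in *Npc1-/-* replicate 3 (3.20 and 20.9), and the other ratios overlap.

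Genes around the factors were followed as fixed lists. Of 29 other lineage factors (such as *Sox5*, *Sox6* and *Nkx6-1*) 28 were tested, *Rxrg* being too low. None was called in either direction by limma, 8 had an unadjusted p below 0.05 and all 8 were lower (11.6% of all genes were), and the median log2 fold change was −0.14, or −0.075 with 15 of 28 negative once the curve on length was removed. *Sox2*, a factor of neural progenitors and astrocytes, had the smallest p, with 46.3 ± 6.71 in WT and 31.5 ± 4.65 in *Npc1-/-* cells (scaled TPM, SD, n = 3) and a log2 fold change of −0.55 (adjusted p = 0.0895 by limma). Of 20 partners and cofactors, such as the E proteins that pair with *Olig2*, the histone deacetylases and the remodeler *Smarca4*, none was called, 2 were higher and 2 lower at an unadjusted p below 0.05 (10.6% and 11.6% of all genes were), a share near that of all genes, and the median was −0.08. The acetyltransferase *Ep300* had the smallest p (log2 difference −0.32, adjusted p = 0.130 by limma).

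The brakes and the targets lay on opposite sides of 0 with size factors. The list of brakes held 14 genes that hold back differentiation or belong to pathways that do, such as the Id proteins, Notch and BMP pathway genes. In it 1 gene was called, and it was lower (0.413% of all genes were). This was *Notch1*, the receptor, with 19.3, 21.4 and 16.0 scaled TPM in WT and 9.64, 7.24 and 8.0 in *Npc1-/-* mice. The log2 difference was −1.14 (95% interval −1.49 to −0.80, adjusted p = 0.0364 by limma). With a mouse left out it was −1.26 to −1.05 and was called in 1 of the 6 fits, that without *Npc1-/-* replicate 3 (adjusted p from 0.0372 to 0.172). That fit called 377 of 15362 genes as lower. The call was also lost without the variance trend (adjusted p = 0.0562 by limma) and without the filter on TPM (0.0970). At an unadjusted p below 0.05 there were 8 of the 14, all lower (11.6% of all genes were). In these 8 every *Npc1-/-* mouse lay below every WT mouse (14.2% of all genes did). The 8 include *Smad6* (log2 difference −0.86) and *Axin2* (−0.39), inhibitors of BMP and Wnt signalling, so their lower level is not that of a brake. *Smad7*, also a BMP inhibitor, overlapped between genotypes, as did *Id2*, *Hes5*, *Bmp4*, *Gpr17* and *Lingo1*. The part of other brain cells in these values was not tested. The median of the list was −0.36. It stayed negative on TPM as deposited (−0.72, or −0.39 relative to all genes) and with quantile normalization (−0.37). Of 19 targets of *Sox10* and *Myrf*, 1 was called and it was higher (0.400% of all genes were). *Gjb1*, a gap junction gene that *Sox10* activates, had 55.3, 66.7 and 68.1 scaled TPM in WT and 140, 168 and 145 in *Npc1-/-* mice, a log2 difference of 1.25 (standard error 0.12, adjusted p = 0.0134 by limma). With a mouse left out it was 1.15 to 1.3, and the call was lost without WT replicate 2, WT replicate 3 or *Npc1-/-* replicate 2 (adjusted p from 0.0244 to 0.0792 over the 6 fits). Another 7 targets had an unadjusted p below 0.05, each with all *Npc1-/-* mice above all WT mice (13.3% of all genes were). The median of the targets was 0.37 with 16 of 19 positive, but −0.0065 on TPM as deposited (0.32 relative to all genes) and 0 with quantile normalization, with 9 of 19 positive under each.
These lists were chosen with earlier results of these data known, and their counts are a description. *Sox10* and *Myrf* had log2 fold changes of 0.02 each, and their part in the values of the targets was not tested.

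**Figure D4:**
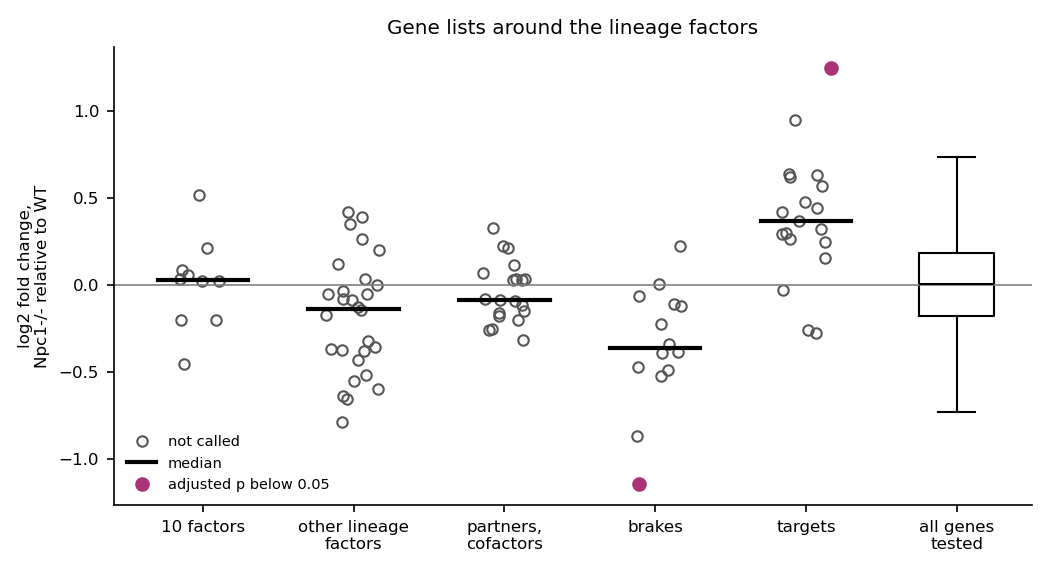
Log2 fold change (vertical axis, *Npc1-/-* relative to WT) of each gene of the 10 factors, other lineage factors, partners and cofactors, brakes and targets, with filled points for an adjusted p below 0.05 by limma, bars at the medians and a box (quartiles, whiskers to 1.5 times their range) for all genes tested. With size factors the medians are 0.03, −0.14, −0.08, −0.36 and 0.37 (that of the targets is −0.0065 on TPM as deposited and 0 with quantile normalization), and the filled points are *Notch1* among the brakes and *Gjb1* among the targets.

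Markers of other cell types moved with genotype in the same libraries. All 6 microglia markers were lower in every *Npc1-/-* mouse than in any WT mouse (14.2% of all genes were), with a summed level of 180 to 281 scaled TPM in WT and 83.1 to 153 in *Npc1-/-* cells. *Tmem119* was called (log2 difference −1.44, adjusted p = 0.0442), beside 0.413% of all genes called lower. Of 5 endothelial markers 4 separated the same way, with sums of 812 to 918 and 399 to 683 and the smallest p for *Pecam1* (log2 difference −0.83, adjusted p = 0.0503 by limma). Astrocyte marker sums overlapped, at 667 to 724 and 450.5 to 862, with 5 of 7 markers lower and *Gfap* higher in every *Npc1-/-* mouse (14.2% and 13.3% of all genes were), and *Slc1a2* had the smallest p (log2 difference −0.79, adjusted p = 0.0557). Without *Npc1-/-* replicate 3 both *Pecam1* and *Slc1a2* were called (log2 differences of −0.95 each, adjusted p of 0.0298 and 0.0279 by limma). That fit called 486 of 15362 genes (109 higher and 377 lower), against 124 of 15245 with all 6 mice. Neuron marker sums were higher, 99.8 to 138 in WT and 164 to 204 in *Npc1-/-* cells. All 8 markers had a positive log2 fold change. Only 2 of the 8, *Nefl* and *Nefm*, had every *Npc1-/-* mouse above every WT mouse (13.3% of all genes did), and the others overlapped. *Nefl* and *Nefm* were called (log2 fold changes of 1.22 and 1.11, adjusted p of 0.0185 and 0.0134 by limma), beside 0.400% of all genes called higher. With a mouse left out, *Tmem119*, *Nefl* and *Nefm* were each called only without *Npc1-/-* replicate 3 (adjusted p of up to 0.184, 0.0764 and 0.0764). The call of *Tmem119* was also lost without the variance trend (adjusted p = 0.0678 by limma) and without the filter on TPM (0.117), that of *Nefl* without the filter (0.0528) and that of *Nefm* on TPM as deposited (0.0777). No marker on these lists was at 0 in all libraries. The part of these cells in the values of *Tcf7l2*, *Zeb2*, *Sox2* and *Notch1*, which several cell types express, was not tested. Nor was it tested for the other genes of the list of brakes.
Within the lineage, OPC markers summed to 141 to 154 scaled TPM in WT and 118 to 198 in *Npc1-/-* cells, with the lowest sum in *Npc1-/-* replicate 3, as for *Olig2*, *Sox10*, *Nkx2-2*, *Tcf7l2* and *Zfp488*. Of these 6 markers 3 had a positive and 3 a negative log2 difference, from −0.35 (*Ptprz1*) to 0.53 (*Lhfpl3*), with a median of 0.067. Among them *Lhfpl3* had the smallest p (adjusted p = 0.205 by limma). In the fit without *Npc1-/-* replicate 3, 109 of 15362 genes were called higher. *Lhfpl3* was among them (log2 difference 0.77, adjusted p = 0.0435 by limma). The sums of the immature oligodendrocyte markers and of the targets were highest in *Npc1-/-* replicate 3, but the first is mostly *Bcas1* (5384 scaled TPM there) and the second mostly *Mbp*. The other 3 immature markers went the other way in it, with *Enpp6* (89.5) and *Gpr17* (250.2) at their lowest of all 6 mice and *Itpr2* (22.8) below every WT mouse. *Itpr2* had the smallest p of these markers (log2 difference −0.38, adjusted p = 0.131 by limma).

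**Figure D5:**
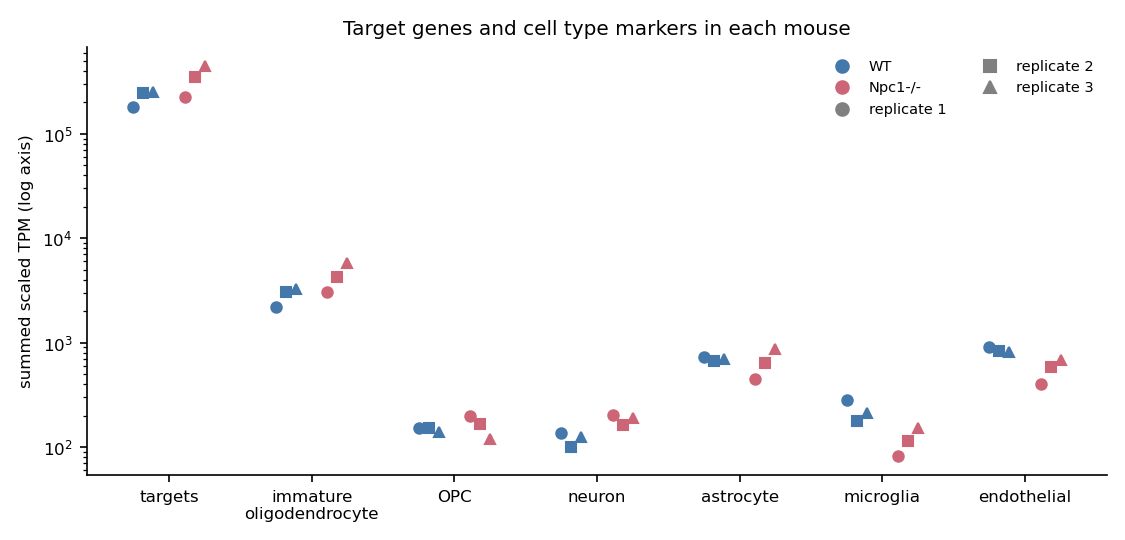
Summed scaled TPM (vertical log axis) of the target genes and of each cell type's markers in each mouse, WT in blue and *Npc1-/-* in red, with a symbol per replicate number. Microglia and endothelial sums are lower in every *Npc1-/-* mouse (83.1 to 153 against 180 to 281, and 399 to 683 against 812 to 918), neuron sums are higher, and OPC sums overlap.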

How the data were processed

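The authors deposited TPM and FPKM per gene (2 decimals) for all 6 samples, and both tables were used. The submitters' processing notes list cutadapt 2.3, STAR 2.7.8a and RSEM 1.3.3 with GRCm38, while the study's methods describe bbduk, STAR 2.7.9a, featureCounts and DESeq2. RSEM is a tool that reports TPM and FPKM, and neither source says which run made the tables. The values are not counts, so no count model was used. Within a sample the deposited FPKM is TPM times 1 factor (0.653 to 0.721).

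Genotype and replicate number came from the sample labels, and each mouse is 1 sample. Median-of-ratios size factors, from the 18690 genes above 0 in every sample, scaled the TPM, and log2 of the result plus 0.5 was taken, a scale that understates changes of low genes. The 15245 genes whose mean TPM reached 0.5 entered limma 3.58.1 (R 4.3.3, two-sided, trend, genotype only, Benjamini-Hochberg over all of them). The study's thresholds were kept (adjusted p under 0.05 and at least 0.1 on the log2 scale), and intervals are 95%. Ratios between factors were tested with exact permutation (20 arrangements, scipy 1.17.1 in Python 3.11.15). Depth was fitted to steps of FPKM in genes with 1 transcript.

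Positions and lengths came from GENCODE M21 (GRCm38), which held 55227 of the 55492 identifiers. The members and lists were chosen with earlier results of these data known. Named beyond the 10 factors were the called genes of each list (at most 4) or the gene with the smallest p. For each factor the 2 genes of most similar pattern were named too, except that 1 of those for *Tcf7l2* is not reported here. *Gfap*, *Bcas1*, *Enpp6*, *Gpr17* and the overlapping genes were named after their values were seen. Alternatives covered unit, scaling, pseudocount, filter, variance model, pairing and each sample left out, and curves on length and GC content (span 0.3) were added after seeing the data.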

Additional observations from a re-analysis of the deposited data

How the results depend on the processing

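The count of factors called was 0 under every alternative but the replicate block, where it was 1. That block paired same-numbered mice, whose deviations correlated at 0.414, 0.0602 and 0.326 across genes. Each of the 6 samples correlated best with its own number, although the labels give no shared litter or batch. The study's methods name littermates, but whether same-numbered mice were littermates is not given. The main fit used genotype only and no pairing. With the replicate block *Nkx6-2* was called (adjusted p = 0.0173 by limma), beside 2011 of the 15245 genes tested, in place of 124. The share among the factors was thus no larger than that over all genes. Over all genes, 924 were called on TPM as deposited (54 higher and 870 lower, against 61 and 63 with size factors), 225 with quantile normalization, 447 at a mean TPM of 5 or more, 42 without the trend, 21 without a filter and from 4 (without *Npc1-/-* replicate 2) to 486 (without *Npc1-/-* replicate 3) with a mouse left out; without WT replicates 1, 2 and 3 there were 16, 13 and 8, and 19 without *Npc1-/-* replicate 1. The median log2 fold change of the factors was −0.34 on TPM as deposited and −0.12 with quantile normalization, and −0.04 to 0.09 with a mouse left out.

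*Nkx6-2* stayed positive (0.15 to 0.65) and *Tcf7l2* and *Zfp488* negative (−0.81 to −0.35 and −0.56 to −0.08) under all alternatives, *Nkx6-2* with adjusted p from 0.0173 to 0.505 and *Tcf7l2* from 0.0715 to 0.368. The other factors changed sign around 0, none of them called. On TPM as deposited the log2 fold change was −0.34 for *Olig1*, −0.31 for *Olig2*, −0.35 for *Sox10*, −0.16 for *Sox8*, −0.35 for *Myrf* and −0.29 for *Zeb2*. With quantile normalization it was −0.30 for *Olig1*, −0.079 for *Olig2*, −0.14 for *Sox10*, −0.11 for *Myrf* and −0.070 for *Zeb2*, and with the curve on GC content −0.0010 for *Olig1* and −0.020 for *Sox10*. With the curve on length it was −0.0024 for *Olig1*. The 95% interval of *Olig1* was −0.59 to −0.015 with quantile normalization, which leaves out 0, and −0.68 to 0.005 on TPM as deposited. With a mouse left out the ranges were −0.052 to 0.091 for *Olig1*, −0.028 to 0.20 for *Olig2*, −0.064 to 0.12 for *Sox10*, −0.35 to 0.040 for *Nkx2-2*, −0.040 to 0.097 for *Myrf* and −0.15 to 0.22 for *Zeb2*. The log2 difference of the ratio of *Olig1* to *Olig2* ran from −0.15 to 0.087 and that of *Myrf* to *Olig2* from −0.19 to 0.093. The other 3 ratios kept their direction but moved in size. With a mouse left out, *Nkx6-2* to *Nkx2-2* ran from 0.37 to 1.01, *Zeb2* to *Tcf7l2* from 0.22 to 0.85 and *Sox8* to *Sox10* from 0.15 to 0.25. *Pecam1* was called under 6 and *Slc1a2* under 5 of 18 alternatives, and *Sox2* and *Gfap* with the replicate block alone (adjusted p of 0.0369 and 0.0427 by limma). The cause of these changes was not tested. With 3 mice a genotype, the 95% intervals with size factors leave room for differences in both directions. They ran from 0.848-fold to 1.24-fold of WT in *Olig1*, 0.895 to 1.5 in *Sox8* and 0.749 to 1.5 in *Zeb2*. For *Nkx2-2* and *Zfp488* they reached lower, at 0.615 to 1.23 and 0.680 to 1.11.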

Other observations

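Extremes of the 10 factors came from 5 of the 6 mice. *Npc1-/-* replicate 3 had the lowest value of 5 factors (*Olig2*, *Sox10*, *Nkx2-2*, *Tcf7l2* and *Zfp488*) and the highest of 2 (*Nkx6-2* and *Zeb2*), where 20.1% of all genes tested had their lowest and 23.3% their highest value in that library. WT replicate 1 had the lowest of 4 factors (*Olig1*, *Sox8*, *Nkx6-2* and *Zeb2*) and WT replicate 2 the highest of 5, against 24% and 12.1% of all genes. *Npc1-/-* replicate 1 had the highest of 3 (*Sox10*, *Sox8* and *Myrf*, against 16.7% of all genes) and *Npc1-/-* replicate 2 the lowest of *Myrf*. The spread on the log2 scale was larger among *Npc1-/-* than among WT mice for 7 of the 10 factors and for 60.6% of all genes. The summed scaled TPM of the 10 was 1203, 1475 and 1356 for WT replicates 1, 2 and 3 and 1437, 1421 and 1372 for the *Npc1-/-* replicates, so that the *Npc1-/-* sums all lay within the WT range.

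For each factor the genes of most similar pattern over the 6 samples were looked up among 9146 genes whose mean TPM reached 5. These are the best of many candidates over 6 libraries that share genotype and scaling, and are given as a description. *Nkx6-2* was closest to *Atp5l* and *Adssl1* (Pearson's r of 0.997 each, Spearman's rho of 1 each, r of 0.998 and 0.994 without the 2 samples farthest from the median). *Tcf7l2* was closest to *Marcks* (r = 0.999, rho = 0.943, r = 0.993 without 2 samples). *Sox10* was closest to *Prpf38a* and *Sulf2*, *Olig2* to *Arhgef2* and *Cct6a*, *Olig1* to *Psma2* and *Skp1a*, *Sox8* to *Klhdc2* and *Sgcb*, *Nkx2-2* to *Exog* and *Tubb2b*, *Myrf* to *Pank3* and *Asns*, *Zfp488* to *Abtb2* and *Eif4e*, and *Zeb2* to *Zfp410* and *Adipor1*, with r between 0.961 and 0.996. Without the 2 farthest samples r fell to 0.729 for *Asns*, 0.784 for *Skp1a*, 0.822 for *Eif4e*, 0.824 for *Abtb2*, 0.854 for *Exog* and 0.882 for *Pank3*, and was 0.922 to 0.999 for the other 10 genes. No other of the 10 factors was among the 2 genes nearest to any of them.

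The antisense genes of the lineage factors were measured beside them. *Zeb2os*, on the strand opposite *Zeb2*, had 7.55 to 13.0 scaled TPM and *Nkx2-2os* 0.811 to 2.52, both with the highest value in *Npc1-/-* replicate 3, where *Zeb2* was highest and *Nkx2-2* lowest. Whether reads were assigned by strand is not given in the sources used here.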
